A study of Mus musculus with 9 samples.

Results

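The 10 genes described here were chosen by name: the syndecans Sdc1, Sdc2, Sdc3 and Sdc4, the glypicans Gpc1, Gpc4 and Gpc6, the leucine-rich proteoglycans Dcn and Bgn, and Hspg2, which encodes perlecan. All 10 were found among 55335 gene identifiers. Of these, 9 had at least 1 read and 8 passed the filter on low counts, as did 14335 genes in all. Gpc4 and Dcn did not pass.

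Proteoglycans are core proteins that carry long sulphated sugar chains, the glycosaminoglycans. Syndecans cross the plasma membrane and glypicans are held to its outer face by a lipid anchor, and both carry mainly heparan sulphate, which binds fibroblast growth factors, chemokines and matrix proteins. Perlecan is a heparan sulphate proteoglycan of basement membranes, and decorin and biglycan are small leucine-rich proteoglycans of the matrix with chondroitin or dermatan sulphate chains. In breast tumours these molecules are known as co-receptors, as parts of the stroma and as substrates of enzymes that shed or trim them.

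The cells are D2A1-d, a mouse breast carcinoma line that grows in culture. They carried shMed4 #1 or shMed4 #4, hairpins against Med4, a subunit of the Mediator complex, or a non-targeting control hairpin (NTC). The labels give Med4 knockdown as the genotype of both hairpin groups and WT as that of NTC, and list every group as untreated. Each group has 3 libraries, and all were made from total RNA of transduced cells grown in serum. The replicates are numbered as biological, but nothing states separate transductions or cultures, so a p-value here reflects only variation among the libraries, which may be technical.

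Libraries held 7572114 to 8582235 reads assigned to genes. Med4 stood at 4.53 ± 0.386 CPM (reads of the gene scaled to library size) with shMed4 #1, 7.21 ± 0.982 CPM with shMed4 #4 and 27.4 ± 2.19 CPM in NTC (SD, n = 3), a change of log2 -2.59 with shMed4 #1 and -1.92 with shMed4 #4. The line lacked most epithelial markers: Cdh1 had no read and Epcam had 1 read in all 9 libraries, whereas Vim averaged 1501 CPM with shMed4 #1, 1101 CPM with shMed4 #4 and 1950 CPM in NTC. Krt8 averaged 19.2 CPM with shMed4 #1, 53.9 CPM with shMed4 #4 and 3.93 CPM in NTC, and Krt18 averaged 80.8, 133 and 20.4 CPM in the same order. Of the marker sets for other cells, the summed fibroblast level was 242 to 260, 232 to 251 and 267 to 300 CPM over the 12 genes in shMed4 #1, shMed4 #4 and NTC, with Fap at 0 reads and Lum and Dpt at 1 read each. Other genes of this set were present and moved both ways: Pdgfra averaged 77.1, 60.0 and 128 CPM, Pdgfrb 110, 109 and 137 CPM, Col1a1 46.4, 51.5 and 15.5 CPM and Col1a2 10.9, 17.7 and 4.02 CPM in that order. The 8 endothelial genes summed to 2.73 to 4.40, 2.07 to 3.23 and 1.42 to 2.11 CPM in the same order, with Tie1, Emcn and Cldn5 at 0. Cdh5 of this set averaged 2.47, 2.26 and 0.832 CPM. The 8 leukocyte genes summed to 14.0 to 15.5, 15.1 to 16.6 and 16.7 to 22.1 CPM, with Cd3e at 0. Most of this was Csf1r, at 10.2, 10.9 and 10.4 CPM, while Cd68 averaged 2.78, 3.65 and 4.85 CPM and Lyz2 1.36, 1.10 and 3.75 CPM. The 7 pericyte and smooth muscle genes summed to 759 to 805, 1020 to 1180 and 230 to 247 CPM, most of it Acta2. The part of these markers in the results was not tested. In cultures measured in bulk, fewer cells of a kind and less RNA per cell cannot be told apart.

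The proteoglycans split by direction. Sdc1, Bgn and Hspg2 rose with both hairpins, Sdc2 and Sdc4 fell with both, and Sdc3 and Gpc1 each changed with 1 hairpin. Gpc6 passed the filter on low counts only through the shMed4 #1 libraries, so its place in the counts that follow was set by the group where it is high. With shMed4 #1, 5 genes (4 without Gpc6) rose and 2 fell at an adjusted p under 0.05 in edgeR's quasi-likelihood test, where 41.6% of all tested genes passed (21.8% higher, 19.8% lower). With shMed4 #4, 3 rose and 3 fell, where 55.1% of all genes passed (27.8% higher, 27.3% lower). For the mean of both hairpins 4 rose (3 without Gpc6) and 2 fell, where 53.3% of all genes passed (26.8% higher, 26.5% lower). In shMed4 #4 set against shMed4 #1, 1 was higher and 5 were lower (4 without Gpc6), where 28.0% of all genes passed (14.2% higher, 13.9% lower). Passing in the same direction with both hairpins was met by 3 risers (17.4% of all genes) and 2 fallers (15.8% of all genes). The median log2 difference over all genes was -0.01 in each comparison with NTC. Both hairpins were set against the same NTC libraries, so the comparisons share them.

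**Figure D1:**
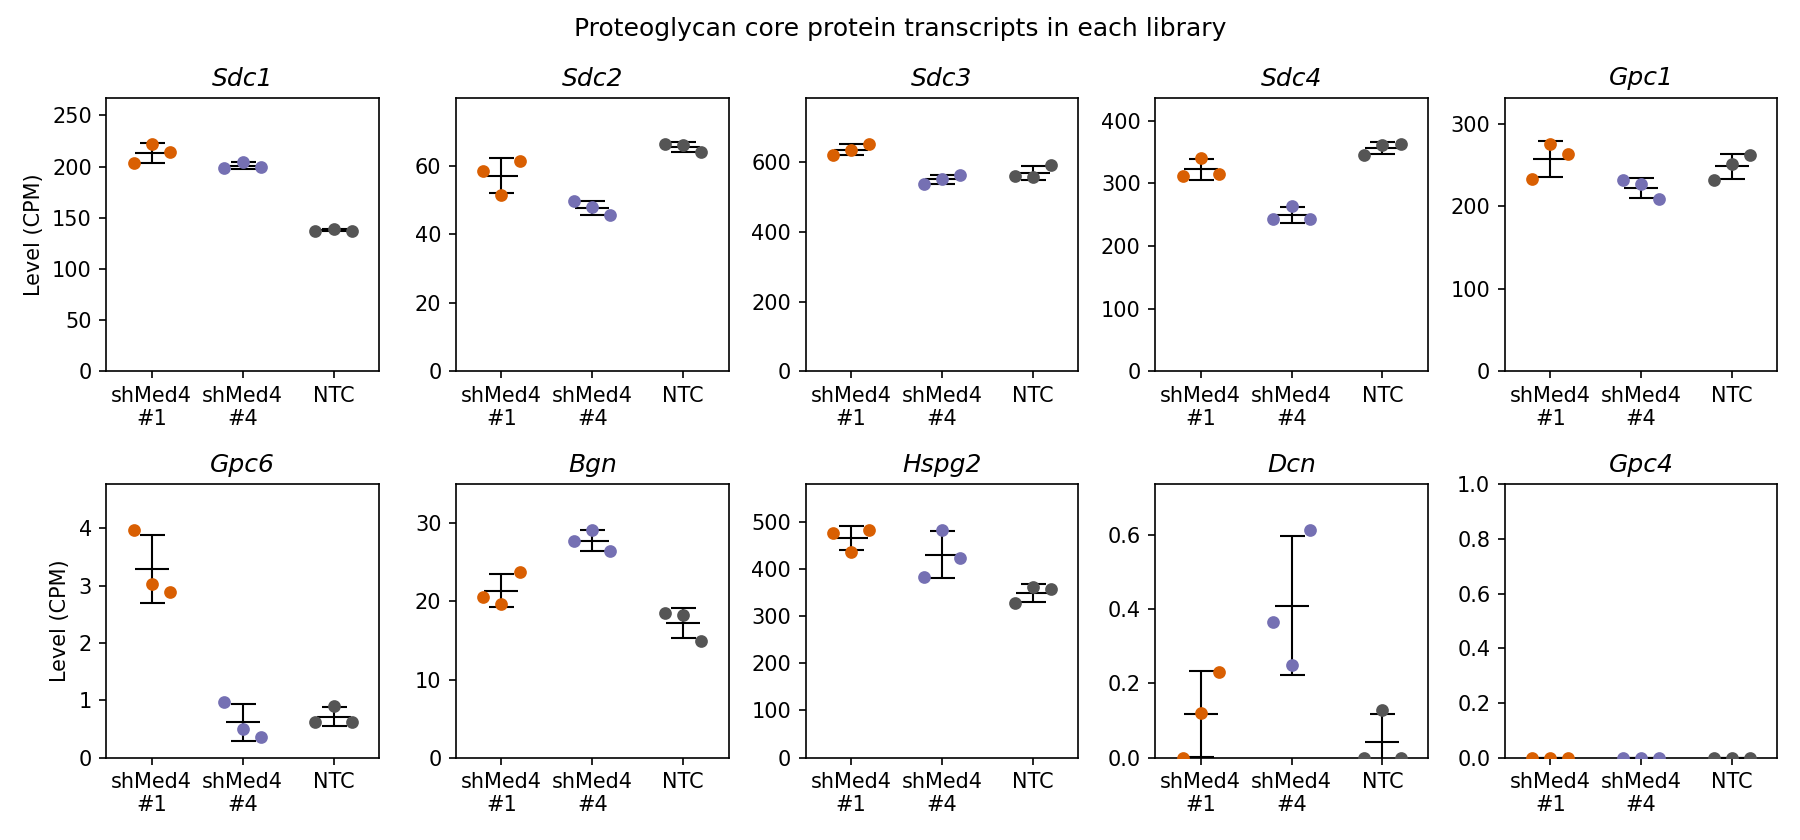
Level of each proteoglycan gene in every library (CPM, linear axes from 0 with a range of their own in each panel), with shMed4 #1, shMed4 #4 and NTC from left to right, points for libraries and black marks for the mean and SD. Every knockdown library of Sdc1 (199 to 223 CPM) lies above every NTC library (137 to 139 CPM).

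The promoter windows below are shown for the genes that changed in 1 direction with both hairpins and have an entry in RefSeq's table for GRCm38.p6, which holds 6 of the 10. Each runs from 250 bases before to 50 bases after the RefSeq start and is written 5′ to 3′ on the gene's strand. Capitals mark the GC box GGGCGG on either strand, the core of the site known for Sp1-type factors. Sdc1 lies at chr12:8771146-8771445 on the plus strand, Sdc4 at chr2:164443139-164443438 on the minus strand, Bgn at chrX:73483351-73483650 on the plus strand and Hspg2 at chr4:137468553-137468852 on the plus strand.
Sdc1: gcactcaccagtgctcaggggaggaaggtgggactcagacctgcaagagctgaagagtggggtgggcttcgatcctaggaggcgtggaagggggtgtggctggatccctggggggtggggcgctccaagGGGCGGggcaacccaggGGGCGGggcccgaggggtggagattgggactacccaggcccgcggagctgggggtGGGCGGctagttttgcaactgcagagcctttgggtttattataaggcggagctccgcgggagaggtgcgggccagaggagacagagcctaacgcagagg
Hspg2: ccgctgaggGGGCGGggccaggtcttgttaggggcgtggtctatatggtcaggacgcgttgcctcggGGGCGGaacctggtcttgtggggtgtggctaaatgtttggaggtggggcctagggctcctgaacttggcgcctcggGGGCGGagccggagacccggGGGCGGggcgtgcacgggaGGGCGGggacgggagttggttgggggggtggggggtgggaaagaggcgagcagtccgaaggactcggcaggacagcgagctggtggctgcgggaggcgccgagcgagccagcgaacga
Bgn: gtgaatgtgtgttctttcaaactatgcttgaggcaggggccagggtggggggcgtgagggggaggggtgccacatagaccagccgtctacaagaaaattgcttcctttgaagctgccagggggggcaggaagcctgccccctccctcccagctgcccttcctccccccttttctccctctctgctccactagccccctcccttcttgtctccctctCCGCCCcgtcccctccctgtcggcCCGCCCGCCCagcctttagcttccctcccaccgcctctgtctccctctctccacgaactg
Sdc4: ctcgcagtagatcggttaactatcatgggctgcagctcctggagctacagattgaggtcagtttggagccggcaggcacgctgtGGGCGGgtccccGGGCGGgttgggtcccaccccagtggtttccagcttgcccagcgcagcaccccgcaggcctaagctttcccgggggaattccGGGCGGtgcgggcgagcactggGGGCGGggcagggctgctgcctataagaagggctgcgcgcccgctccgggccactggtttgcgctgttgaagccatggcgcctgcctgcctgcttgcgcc
The windows of Sdc1, Hspg2, Bgn and Sdc4 held 3, 5, 3 and 4 GC boxes, and 1 pair in Bgn overlaps. Of 32851 promoter windows of this length, 35.7% held at least 1 GC box. GC content was 66.3% in Sdc1, 70.3% in Hspg2, 63.7% in Bgn and 67.7% in Sdc4, beside a median of 52.7% over all windows. The window of Sdc3, which did not change with both hairpins, also held 3 GC boxes, at a GC content of 77.7%. TATAAA, found in 13.6% of windows, and the AP-1 motif TGANTCA, found in 7.81%, matched none of the 4. CCAAT, in 37.4% of windows, matched only Sdc1, and the E box CANNTG, in 72.3%, matched Sdc1 and Bgn. All motifs were searched on both strands. The Sdc4 window starts from a RefSeq start that lies 698 bases from the start annotated by GENCODE, against at most 72 bases for the other 3.

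Among the syndecans, Sdc1 was the one that rose with both hairpins. Sdc1 is best known from epithelial and plasma cells, where its shed ectodomain is a marker. Sdc1 (ENSMUSG00000020592.14, chromosome 12, 8771323 to 8793715 in GRCm38, plus strand, protein-coding) stood at 203, 223 and 215 CPM with shMed4 #1, at 199, 204 and 199 CPM with shMed4 #4, and at 137, 139 and 137 CPM in NTC. All 6 knockdown libraries lay above all NTC libraries, and the hairpin groups overlapped. The rise was 1.55-fold with shMed4 #1 (log2 0.63, SE 0.05, adjusted p = 1.23e-12) and 1.46-fold with shMed4 #4 (log2 0.54, SE 0.05, adjusted p = 3.04e-11) in edgeR. The hairpins did not pass against each other (log2 -0.09, 95% interval -0.19 to 0.02, adjusted p = 0.208 in edgeR).

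Sdc4, the syndecan of focal adhesions that binds protein kinase C alpha, fell with both hairpins and further with shMed4 #4. Sdc4 (ENSMUSG00000017009.3, chromosome 2, 164424247 to 164443887, minus strand) stood at 311, 341 and 314 CPM with shMed4 #1, at 242, 263 and 242 CPM with shMed4 #4, and at 345, 360 and 363 CPM in NTC. The 3 groups did not overlap, with shMed4 #4 lowest and NTC highest. It fell by 30.0% with shMed4 #4 (log2 -0.51, SE 0.05, adjusted p = 9.71e-11) and by 9.55% with shMed4 #1 (log2 -0.14, SE 0.05, adjusted p = 0.0211). The difference of shMed4 #4 from shMed4 #1 was itself past the threshold in edgeR (log2 -0.37, SE 0.05, adjusted p = 7.06e-07). The smaller change was fragile in edgeR: its adjusted p was 0.0714 without NTC replicate 2, 0.0674 without NTC replicate 3, 0.0748 without shMed4 #1 replicate 1 and 0.0977 without shMed4 #1 replicate 3. Over all alternatives it ranged from 0.00530 to 0.0977.

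Sdc2, the syndecan of mesenchymal cells, moved in the direction of Sdc4. Sdc2 (ENSMUSG00000022261.6, chromosome 15, 32920723 to 33034935, plus strand) stood at 58.5, 51.4 and 61.3 CPM with shMed4 #1, at 49.6, 47.9 and 45.6 CPM with shMed4 #4, and at 66.4, 66.1 and 63.8 CPM in NTC. All knockdown libraries were below all NTC libraries, and all shMed4 #4 libraries were below all shMed4 #1 libraries. It fell by 27.1% with shMed4 #4 (log2 -0.46, SE 0.07, adjusted p = 1.09e-06) and by 12.7% with shMed4 #1 (log2 -0.20, SE 0.07, adjusted p = 0.0207) in edgeR. Against shMed4 #1, shMed4 #4 differed by log2 -0.26 (SE 0.07, adjusted p = 0.00591 in edgeR), which was lost without shMed4 #1 replicate 3 (adjusted p = 0.0680, range over alternatives 0.00133 to 0.0680). The fall with shMed4 #1 missed the threshold in DESeq2 (adjusted p = 0.0579). In edgeR it missed without NTC replicate 1 (0.0617), without NTC replicate 2 (0.0600) and without shMed4 #1 replicate 2 (log2 -0.12, 0.197), as adjusted p. Its range over alternatives was 0.00786 to 0.197.

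Sdc3, known mainly from the nervous system, parted the hairpins. Sdc3 (ENSMUSG00000025743.14, chromosome 4, 130792537 to 130826319, plus strand) stood at 622, 635 and 654 CPM with shMed4 #1, at 538, 552 and 565 CPM with shMed4 #4, and at 561, 558 and 593 CPM in NTC. The shMed4 #1 libraries were above all others, and shMed4 #4 overlapped with NTC. It rose by 11.7% with shMed4 #1 (log2 0.16, SE 0.05, adjusted p = 0.00677 in edgeR). With shMed4 #4 it did not pass (log2 -0.05, 95% interval -0.14 to 0.05, adjusted p = 0.416 in edgeR). The hairpins differed by log2 -0.21 for shMed4 #4 against shMed4 #1 (SE 0.05, adjusted p = 0.00103 in edgeR). Exons of Gm26716 on the other strand cover 6.93% of the Sdc3 exon bases and held a mean of 810 reads per library against 4781 for Sdc3. Under the annotation used here, 100% of the Gm26716 exon bases lie inside Sdc3 exons, yet it held reads. Counting without strand would have left such reads with neither gene, so counting appears to have used strand. Whether the libraries themselves kept strand is not given, so reads of the 2 genes cannot be told apart in these exons.

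**Figure D2:**
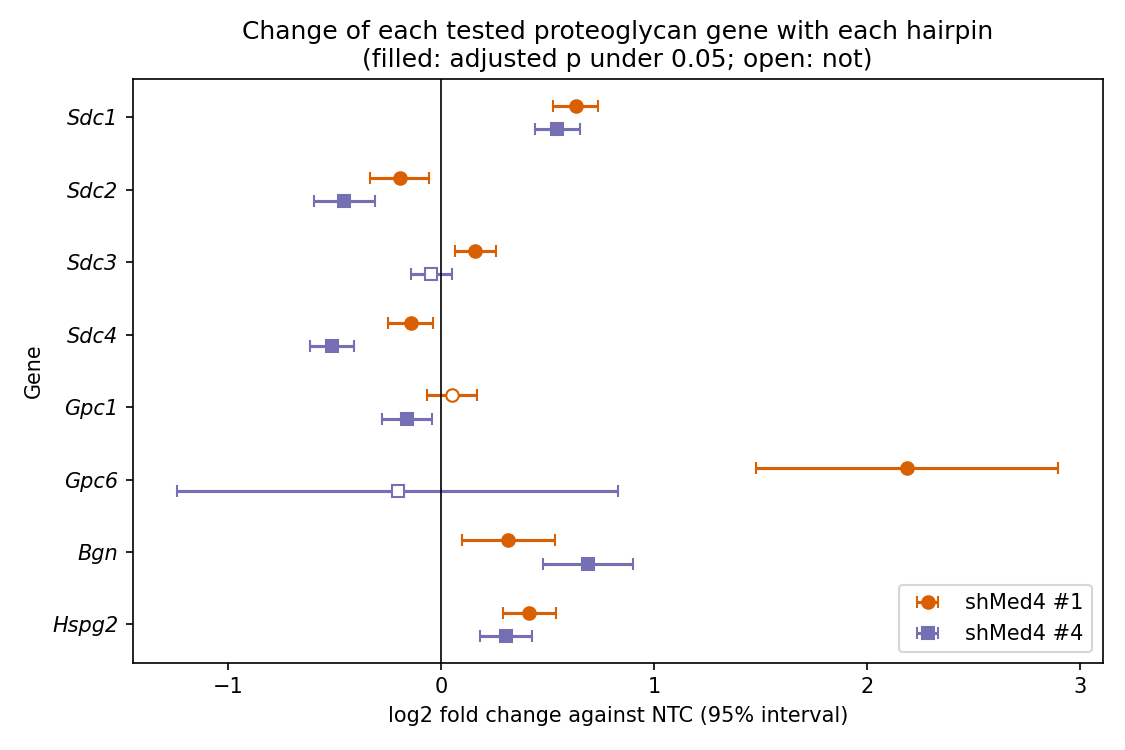
log2 fold change of the 8 tested proteoglycan genes with 95% intervals, for shMed4 #1 minus NTC (orange circles) and shMed4 #4 minus NTC (purple squares). Filled symbols passed an adjusted p of 0.05 in edgeR, and Gpc6 with shMed4 #1 (2.19) lies farthest from 0 on the higher side, a gene that passed the low-count filter only through that group.

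Per length, the syndecans were abundant messages. Mean RPKM (CPM per kilobase of exon) in NTC was 140 for Sdc4, 95.2 for Sdc3, 36.2 for Sdc1 and 18.6 for Sdc2, with SDs of 3.94, 3.23, 0.222 and 0.403 (n = 3). Sdc4 ranked 249th of the 14335 tested genes by this level and Sdc3 ranked 415th. The other tested proteoglycans stood at 48.2 ± 2.93 RPKM for Gpc1, 24.4 ± 1.33 RPKM for Hspg2, 2.83 ± 0.323 RPKM for Bgn and 0.111 ± 0.0257 RPKM for Gpc6 in NTC (SD, n = 3). In the order Sdc4, Sdc3, Gpc1, Sdc1, Hspg2, Sdc2, Bgn and Gpc6, each neighbouring pair lay farther apart than the SDs of both. The level of Bgn depends on the length used, as its exon union is 6099 bases and its longest transcript 2666 bases.

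Within the syndecan messages, Sdc1 took a larger share and Sdc4 a smaller share in every knockdown library than in every NTC library. Sdc1 made up 18.4 ± 0.330% of the summed syndecan RPKM with shMed4 #1, 20.6 ± 0.180% with shMed4 #4 and 12.5 ± 0.270% in NTC (SD, n = 3). Sdc4 made up 41.4 ± 1.26% with shMed4 #1, 38.2 ± 1.05% with shMed4 #4 and 48.2 ± 0.570% in NTC. Sdc3 made up 34.9 ± 0.905% with shMed4 #1, 36.0 ± 1.00% with shMed4 #4 and 32.9 ± 0.668% in NTC, and Sdc2 took 5.31, 5.28 and 6.41% in the same order. The summed level was 305 ± 8.46 RPKM with shMed4 #1, 256 ± 5.89 RPKM with shMed4 #4 and 290 ± 5.96 RPKM in NTC. With the longest transcript as length, Sdc3 (38.3%) stood above Sdc4 (35.0%) with shMed4 #4, so the order of these 2 depends on the length there. No test was run on the shares.

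**Figure D3:**
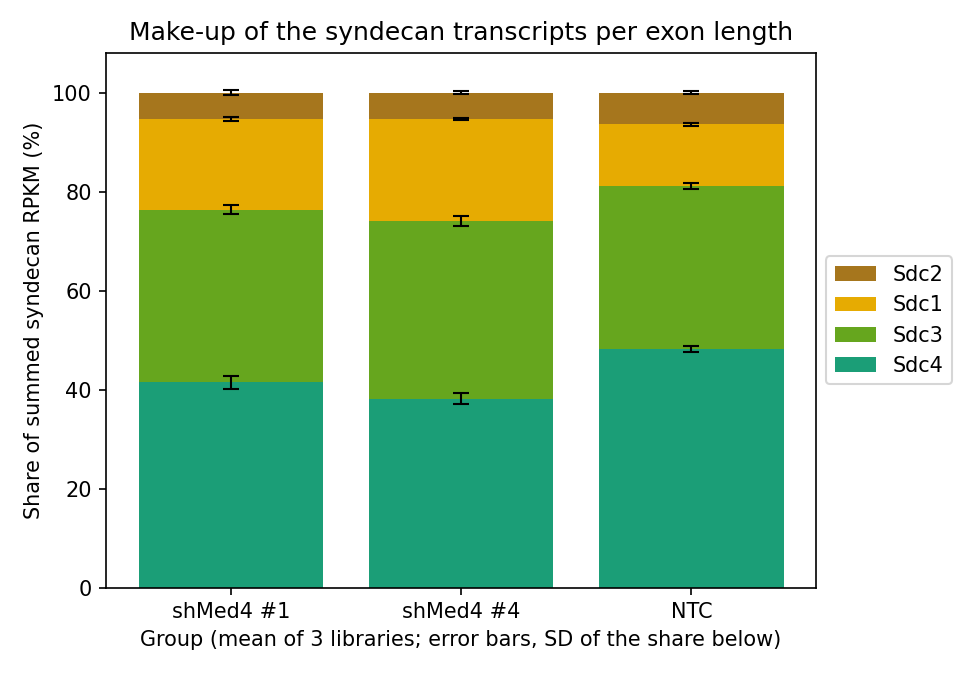
Share of each syndecan in the summed per-length level of the 4 syndecans (percent of RPKM), for shMed4 #1, shMed4 #4 and NTC from left to right, as means with SD over 3 libraries. The Sdc1 part is 18.4, 20.6 and 12.5% and the Sdc4 part 41.4, 38.2 and 48.2% in these groups.

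Of the glypicans, Gpc1 carried nearly the whole level. Gpc1, a co-receptor for fibroblast growth factors, made up 99.0% of the summed glypican RPKM with shMed4 #1, 99.8% with shMed4 #4 and 99.8% in NTC. Gpc1 (ENSMUSG00000034220.7, chromosome 1, 92831645 to 92860779, plus strand) stood at 233, 276 and 263 CPM with shMed4 #1, at 232, 227 and 209 CPM with shMed4 #4, and at 232, 251 and 262 CPM in NTC. The shMed4 #1 libraries overlapped with NTC, while those of shMed4 #4 lay below the lowest NTC library, the nearest by less than 1 CPM. With shMed4 #1 it did not pass (log2 0.05, 95% interval -0.07 to 0.17, adjusted p = 0.509 in edgeR). With shMed4 #4 it fell by 10.5% (log2 -0.16, SE 0.06, adjusted p = 0.0190 in edgeR). That call was lost without NTC replicate 2 (adjusted p = 0.0614), NTC replicate 3 (0.113) or shMed4 #4 replicate 3 (0.157), in a range over alternatives of 0.00289 to 0.157. Against shMed4 #1, shMed4 #4 was lower by log2 -0.21 (SE 0.06, adjusted p = 0.00534 in edgeR), which was lost without shMed4 #1 replicate 2 (0.0603) or shMed4 #4 replicate 3 (0.0639), in a range of 0.000185 to 0.0639. Exons of Ankmy1 on the other strand cover 18.9% of the Gpc1 exon bases, and Ankmy1 held a mean of 183 reads against 1979 for Gpc1.

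Gpc6, a glypican released by astrocytes and altered in human omodysplasia, was nearly silent except with shMed4 #1. Gpc6 (ENSMUSG00000058571.11, chromosome 14, 116925315 to 117976544, plus strand) had 32, 25 and 25 reads with shMed4 #1, 8, 4 and 3 reads with shMed4 #4, and 5, 7 and 5 reads in NTC. In CPM this was 3.98, 3.02 and 2.89 with shMed4 #1, 0.976, 0.497 and 0.368 with shMed4 #4, and 0.622, 0.904 and 0.614 in NTC. The shMed4 #1 libraries were above all others, and shMed4 #4 overlapped with NTC. The gene passed the low-count filter only through the shMed4 #1 libraries, so its differences are given as a description and no p is read from them. It was 4.55-fold higher with shMed4 #1 than in NTC (log2 2.19, SE 0.35), and shMed4 #4 stood at log2 -0.20 against NTC (95% interval -1.24 to 0.83). The difference of shMed4 #4 from shMed4 #1 was log2 -2.39 (SE 0.36). Its mean over both hairpins (log2 0.99) joins unlike values. Gpc4 (ENSMUSG00000031119.4, chromosome X, 52053021 to 52165252, minus strand), another astrocyte glypican, had no read in any library. A count of 0 allows up to 3 reads over a group, which is 0.120 CPM with shMed4 #1, 0.120 CPM with shMed4 #4 and 0.128 CPM in NTC, for counting error only.

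Perlecan and biglycan, the matrix members that were measured, rose with both hairpins. Hspg2 (ENSMUSG00000028763.18, chromosome 4, 137468769 to 137570630, plus strand) stood at 477, 436 and 482 CPM with shMed4 #1, at 384, 483 and 425 CPM with shMed4 #4, and at 327, 363 and 357 CPM in NTC. Each knockdown library was above each NTC library, and the hairpin groups overlapped. The rise was 1.33-fold with shMed4 #1 (log2 0.41, SE 0.06, adjusted p = 6.45e-07) and 1.23-fold with shMed4 #4 (log2 0.30, SE 0.06, adjusted p = 5.76e-05) in edgeR. The hairpins did not pass against each other (log2 -0.11, 95% interval -0.23 to 0.01, adjusted p = 0.171 in edgeR). Without shMed4 #4 replicate 2, the highest of its group, they did (log2 -0.19, adjusted p = 0.0189, range over alternatives 0.0189 to 0.782).

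Biglycan binds collagen and is known to signal through Toll-like receptors. Bgn (ENSMUSG00000031375.17, chromosome X, 73483602 to 73495933, plus strand) stood at 20.6, 19.7 and 23.8 CPM with shMed4 #1, at 27.7, 29.2 and 26.5 CPM with shMed4 #4, and at 18.5, 18.2 and 15.0 CPM in NTC. The 3 groups did not overlap, with shMed4 #4 highest and NTC lowest. It was 1.61-fold higher with shMed4 #4 (log2 0.69, SE 0.10, adjusted p = 6.07e-07) and 1.24-fold higher with shMed4 #1 (log2 0.31, SE 0.11, adjusted p = 0.0182) in edgeR. The hairpins differed by log2 0.37 for shMed4 #4 against shMed4 #1 (SE 0.10, adjusted p = 0.00403 in edgeR). The rise with shMed4 #1 was lost in DESeq2 (adjusted p = 0.0554) and in edgeR without NTC replicate 3 (0.137) or shMed4 #1 replicate 3 (0.139), in a range of 0.0121 to 0.139. Bgn and Hspg2 are also made by pericytes and fibroblasts, and Acta2 averaged 708 CPM with shMed4 #1, 1003 CPM with shMed4 #4 and 212 CPM in NTC. The pericyte markers Rgs5 and Cspg4 held 8 and 18 reads over all 9 libraries. Of the same set Mcam averaged 65.5, 63.7 and 23.7 CPM, Des 7.68, 12.1 and 3.97 CPM and Notch3 1.82, 0.696 and 0.415 CPM in shMed4 #1, shMed4 #4 and NTC. Of the fibroblast set, Col1a1 and Col1a2 were likewise higher in both hairpin groups, while Pdgfra and Pdgfrb were lower in both, at the levels given above. The part of these markers in the rises of Bgn and Hspg2 was not tested.

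Decorin, which binds collagen fibrils and TGF-beta, was barely detected. Dcn (ENSMUSG00000019929.16, chromosome 10, 97479609 to 97518143, plus strand) had 0, 1 and 2 reads with shMed4 #1, 3, 2 and 5 reads with shMed4 #4, and 0, 1 and 0 reads in NTC. Summed over the group these were 3 reads (exact Poisson 95% interval 0.619 to 8.77), 10 reads (4.80 to 18.4) and 1 read (0.0253 to 5.57) in the same order. The shMed4 #4 libraries held the most and did not overlap with NTC, but the gene was below the filter and has no main test. In edgeR without that filter its adjusted p was 0.0603 for shMed4 #4 and 0.616 for shMed4 #1.

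The shift of the genes around each locus was set beside each change, as the median log2 difference of up to 50 tested neighbours. For shMed4 #1 it was -0.04 around Sdc1, -0.12 around Bgn and 0.05 around Hspg2, and for shMed4 #4 it was -0.23, -0.12 and -0.04, so the risers stood above their neighbours. Sdc2 fell while its neighbours had a median of 0.20 with shMed4 #1 and 0.22 with shMed4 #4. Around Sdc4 the medians were -0.10 with shMed4 #1, close to its own -0.14, and -0.13 with shMed4 #4, against its own -0.51. The part of such regional shifts in the results was not tested.

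**Figure D4:**
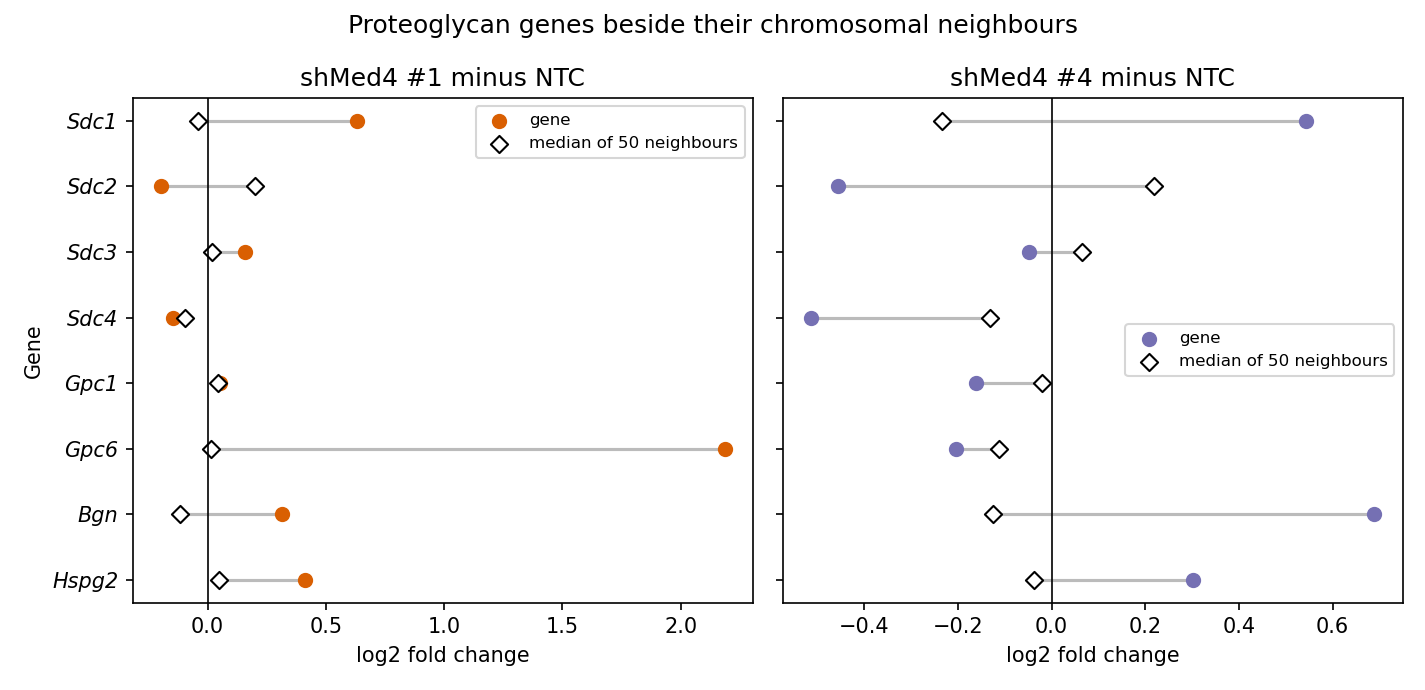
log2 fold change of each proteoglycan gene (circle) and median of its 50 tested chromosomal neighbours (diamond), for shMed4 #1 minus NTC on the left and shMed4 #4 minus NTC on the right, on x axes of different range. Sdc1 with shMed4 #4 stands at 0.54 against -0.23 for its neighbours, and Sdc2 at -0.46 against 0.22.

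Other core proteins differed between the hairpins. Of 30 further proteoglycan cores, 10 were tested. With shMed4 #1, 2 rose and 2 fell in edgeR, where 21.8% of all genes rose and 19.8% fell. With shMed4 #4 none rose and 6 fell, where 27.8% rose and 27.3% fell. For the mean of both hairpins none rose and 5 fell, where 26.8% rose and 26.5% fell. Omd, 1 of the 5, passed the low-count filter through the NTC libraries, where it is high, and Vcan, another, was higher with shMed4 #1. With no low-count filter 2 rose and 3 fell for the mean, with both hairpins pooled 2 fell, at an adjusted p under 0.01 there were 3 that fell, and with a minimum of 1 CPM in 3 libraries 1 rose. The number that fell was 3 without NTC replicate 3, shMed4 #4 replicate 1 or shMed4 #4 replicate 3, and 1 rose without NTC replicate 1 or 2, without any 1 library of shMed4 #1 or without shMed4 #4 replicate 2. Omd, a keratan sulphate proteoglycan of bone, held 27 reads with shMed4 #1, 22 with shMed4 #4 and 57 in NTC (log2 -1.26). Spock3, a testican, changed by log2 -0.74 and Ogn, a small leucine-rich protein, by -0.59, which was lost with both hairpins pooled (adjusted p = 0.131 in edgeR). Agrn, the heparan sulphate proteoglycan agrin, changed by -0.11 (adjusted p = 0.0311 in edgeR), a call lost without NTC replicate 2 (0.159), NTC replicate 3 (0.142), shMed4 #1 replicate 1 (0.0583), shMed4 #4 replicate 1 (0.0641) or shMed4 #4 replicate 3 (0.0616), and also with no low-count filter (0.0811) or with both hairpins pooled (0.187). Ogn and Agrn stood at log2 -1.07 and -0.19 with shMed4 #4. With shMed4 #1 they did not pass, at log2 -0.10 and -0.03 (adjusted p = 0.545 and 0.681 in edgeR). For the mean of both hairpins, neighbours had a median of -0.26 around Ogn and Omd, -0.11 around Spock3 and 0.04 around Agrn. Around Vcan it was -0.33, beside its own -0.32. The glypicans Gpc3 and Gpc5 had no read and Gpc2 had 1 read. Vcan and Prelp, chosen after their values were seen, each rose with shMed4 #1 and fell with shMed4 #4. Versican (Vcan) averaged 36.6 CPM with shMed4 #1, 3.12 CPM with shMed4 #4 and 13.4 CPM in NTC (log2 1.45 and -2.10 against NTC, adjusted p = 8.72e-14 and 8.42e-13 in edgeR). Prelp averaged 26.7, 8.89 and 15.6 CPM in the same order (log2 0.78 and -0.81).

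Among the enzymes that build the sugar chains, those for heparan and for chondroitin sulphate held more risers than fallers. In the mean of both hairpins, where 26.8% of all genes rose and 26.5% fell, 6 of 11 tested heparan sulphate enzymes rose and 3 fell (median log2 0.31), and 8 of 11 tested chondroitin and dermatan sulphate enzymes rose and 3 fell (median 0.36), in the same edgeR test. Of the heparan sulphate set, Hs6st2, a 6-O-sulphotransferase, averaged 81.4 CPM with shMed4 #1, 93.1 CPM with shMed4 #4 and 59.3 CPM in NTC (log2 0.55). The other 6-O-sulphotransferase Hs6st1 rose by log2 0.40, the epimerase Glce by 0.37 and the polymerase Ext1 by 0.31. The neighbours of Hs6st2 and Ext1 had medians of 0.50 and 0.37, close to these genes' own values. In the chondroitin set, Csgalnact1, which starts chondroitin chains, rose by log2 1.35, Csgalnact2 by 0.48, the sulphotransferase Chst12 by 0.48 and the synthase Chsy1 by 0.40. Of the enzymes of the shared linker, 2 of 6 rose and 1 fell, near the shares over all genes: Pxylp1, the xylose phosphatase, by log2 0.37, Fam20b, the xylose kinase, by 0.20, and Xylt2, which adds the first xylose, by -0.47.

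Sulf2, an enzyme that edits chains outside the cell, fell with both hairpins. It removes 6-O-sulphates from heparan sulphate and averaged 26.7 ± 1.03 CPM with shMed4 #1, 11.1 ± 0.472 CPM with shMed4 #4 and 67.7 ± 4.71 CPM in NTC (SD, n = 3). Its mean change was log2 -1.98 (SE 0.07, adjusted p = 6.24e-24 in edgeR). Hpse, the heparanase, changed by log2 -0.87 and Bmp1, the protease that matures biglycan, by 0.39. Adam10, a sheddase of syndecans, changed by 0.13 (adjusted p = 0.0184 in edgeR). That call was lost with both hairpins pooled (0.219), with upper-quartile factors (0.0991) and without NTC replicate 1 (0.0569) or NTC replicate 3 (0.0628). The mean of Adam10 joins log2 0.27 with shMed4 #1 and -0.02 with shMed4 #4 (adjusted p = 0.813 in edgeR for the latter). The neighbours of Adam10 had a median of 0.16 for the mean of both hairpins. In all, 2 of 6 tested genes rose and 2 fell, where 26.8% of all genes rose and 26.5% fell. Of 11 lysosomal enzymes that break the chains down, 3 rose and 6 fell (median log2 -0.20), so the risers were near the share over all genes. Sgsh changed by log2 -0.61, Arsb by -0.55, Ids by -0.43 and Gusb by 0.30. Arsb joins log2 -0.21 with shMed4 #1 and -0.89 with shMed4 #4, and Gusb joins 0.16 and 0.44. The shMed4 #1 calls of these 2 genes were lost in DESeq2 (adjusted p = 0.0723 and 0.0621) and in edgeR without some single libraries. For the mean, the neighbours of Sgsh, Arsb, Ids and Gusb had medians of -0.11, -0.26, 0.095 and 0.12. Exons of genes on the other strand cover 21.6% of Sgsh and 32.3% of Arsb, where reads cannot be told apart.

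**Figure D5:**
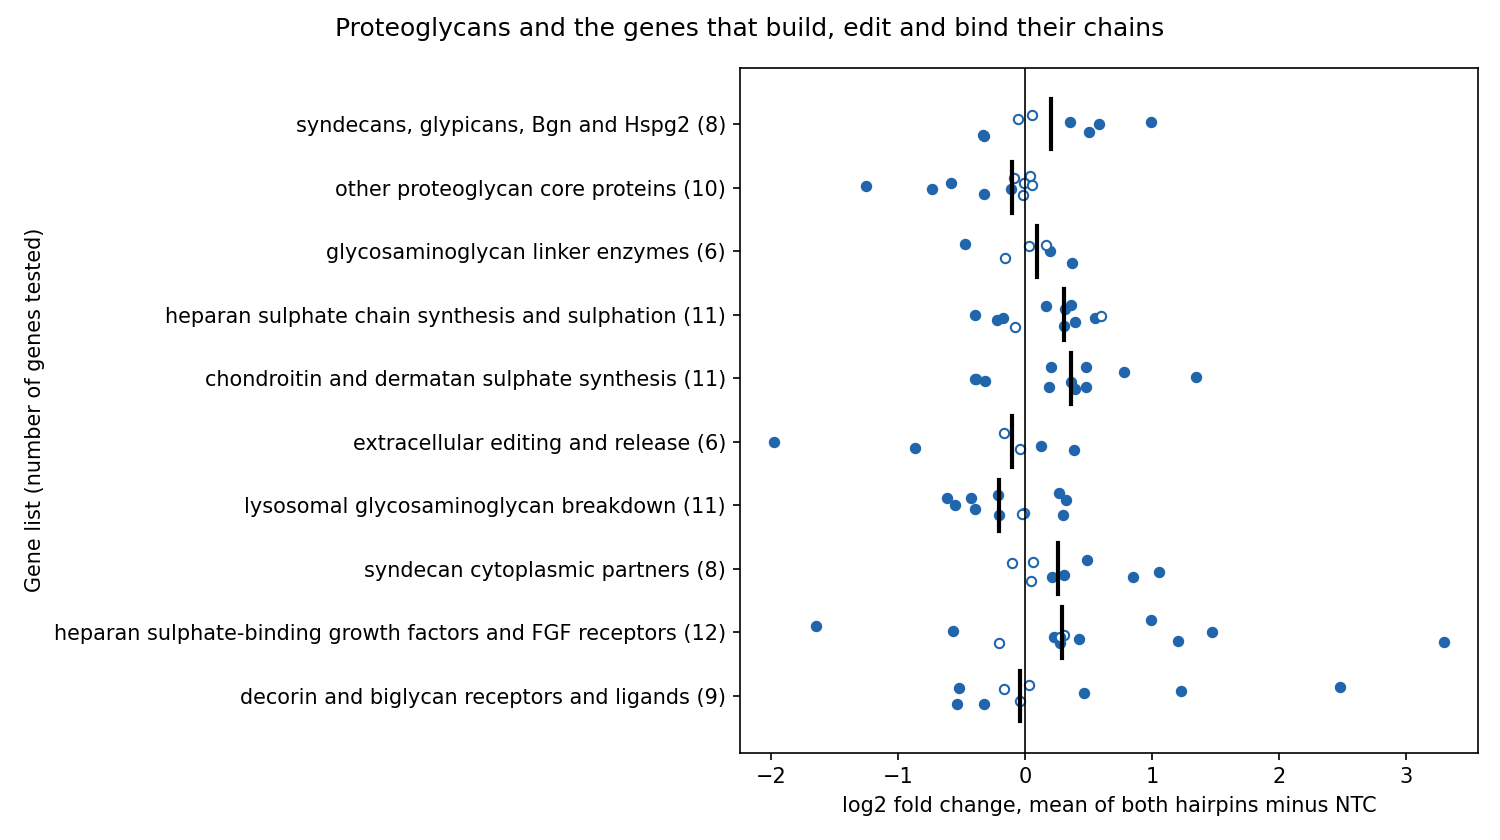
log2 fold change of each tested gene for the mean of both hairpins minus NTC, by gene list, with the median as a black line. Filled points passed an adjusted p of 0.05 in edgeR, and Sulf2 (-1.98) is the lowest point and Ptn (3.30), which passed the low-count filter only through the knockdown libraries, the highest.

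The genes listed as cytoplasmic partners of syndecans held risers and no faller. Of 8 tested cytoplasmic partners, 5 rose and none fell in the mean of both hairpins (median log2 0.26), where 26.8% of all genes rose and 26.5% fell. Tiam1, a Rac activator that binds Sdc1 tails, rose by log2 1.06, the PDZ protein Cask by 0.86, Ezr, which links membrane proteins to actin, by 0.49 and Sdcbp, syntenin, by 0.31. The neighbours of Cask had a median of 0.48. Among heparan sulphate-binding growth factors and FGF receptors, 7 of 12 rose and 2 fell, and 1 fell with both hairpins pooled. The 2 were Fgf7 and Cxcl12. Cxcl12 parted the hairpins, at 8.03 CPM with shMed4 #1, 0.0409 CPM with shMed4 #4 and 2.08 CPM in NTC (log2 1.93 and -5.22 against NTC). It passed the low-count filter only through the groups other than shMed4 #4, so its fall there is a description. Of the 7, Fgf1, Hgf and Ptn passed the low-count filter only through the knockdown libraries, where they are high, which leaves 4. Fgfr1, the receptor for which heparan sulphate is a co-receptor, averaged 186 CPM with shMed4 #1, 233 CPM with shMed4 #4 and 105 CPM in NTC (log2 0.99, adjusted p = 1.55e-18 in edgeR). Ptn, pleiotrophin, held 91 reads with shMed4 #1, 79 with shMed4 #4 and 8 in NTC (log2 3.30, a description). Vegfa rose by 0.23 and Hbegf by 0.28. For Hbegf this joins log2 0.08 with shMed4 #1 (adjusted p = 0.362 in edgeR) and 0.47 with shMed4 #4. Among receptors and ligands of decorin and biglycan, 3 of 9 rose and 3 fell (median log2 -0.04), near the shares over all genes. Ccn4, a matricellular protein that binds both proteoglycans, rose by log2 2.49, Tgfb2 by 1.23 and Tgfb1 by 0.46, and Tlr4, a receptor for biglycan, changed by -0.53.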

How the data were processed

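RNA of D2A1-d cells was sequenced as 9 libraries on a BGISEQ-500 (per the labels' protocols). The submitters' processing notes name STAR, HTSeq and the build mm10 (GRCm38), without roles; tool versions, gene annotation and strandedness were not given in the sources used here. The authors deposited 1 table of raw gene counts per library, in whole reads and without normalization. The closing 5 lines of each table tally reads given to no gene (61.0 to 64.1% of all records) and were excluded from library sizes and tests. Among them, 49.5 to 51.6% of all records matched no counted feature and 0.863 to 0.951% were ambiguous between genes. A record without a counted feature need not lie outside genes, as introns or the other strand may not have been counted.

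Identifiers were matched without version to GENCODE M21 for GRCm38 (55154 of 55335), which gave coordinates and exon lengths. Symbols came from a separate list of gene names, matched in the same way (55154 of 55335). Genes were kept by filterByExpr (minimum count 10), TMM factors were applied, and 1 model of the 3 groups was fitted by edgeR 4.0.16 in R 4.3.3 (quasi-likelihood test, Benjamini-Hochberg adjustment over 14335 genes). CPM uses TMM factors, and RPKM divides it by the union of exons. The fit was tested on simulated counts of 14094 genes for shMed4 #1 minus NTC, where it recovered 99% of 2-fold and 85% of 1.5-fold changes. The 200 genes changed there all lay above 5 CPM and changed alike in both hairpin groups. Changes under 1.5-fold and genes as rare as Gpc6 were therefore not covered. Nor was a change as wide as in the data, where 41.6% of tested genes passed with shMed4 #1.

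The 10 genes and all gene lists were chosen with earlier results of these data known. Named genes are the 10, Med4, and up to 4 genes of each list with the smallest adjusted p for the mean of both hairpins. Poisson intervals and floors cover counting error only, while the 95% intervals of log2 changes come from edgeR's standard errors and include variation between libraries. Alternatives were DESeq2 1.42.0, 2 other scalings, 2 other filters, fits of the compared groups alone, a stricter threshold, the replicate number as a block and leaving out each library.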

Additional observations from a re-analysis of the deposited data

Results flagged for a closer look

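The effects of the hairpins differed for 6 of the 8 tested proteoglycan genes (5 without Gpc6), by the test of shMed4 #4 minus shMed4 #1 in edgeR's common model, where 28.0% of all genes passed. The log2 difference was -2.39 for Gpc6, whose level was 0.613 CPM with shMed4 #4 and 3.30 CPM with shMed4 #1. Gpc6 passed the low-count filter only through shMed4 #1, so its difference is a description. It was -0.37 for Sdc4, -0.26 for Sdc2, -0.21 for Gpc1 and -0.21 for Sdc3, each lower with shMed4 #4. The call of Sdc2 was lost without shMed4 #1 replicate 3 (adjusted p = 0.0680 in edgeR), and that of Gpc1 without shMed4 #1 replicate 2 (0.0603) or shMed4 #4 replicate 3 (0.0639). It was 0.37 for Bgn, at 27.8 CPM with shMed4 #4 and 21.4 CPM with shMed4 #1. Med4 itself was higher with shMed4 #4 than with shMed4 #1 (log2 0.67, adjusted p = 0.00401 in edgeR), and its part in these differences was not tested.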

How the results depend on the processing

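Of the values for single proteoglycan genes under the alternatives, 513 kept direction and side of the threshold, 28 lost the threshold, 1 gained it and 1 reversed. The reversal was Gpc6 with shMed4 #4, at log2 0.060 without shMed4 #4 replicate 3 (range -0.69 to 0.060 over single libraries left out). Among other named genes Ogn with shMed4 #1 ranged from -0.25 to 0.0065 (without NTC replicate 3). Adam10 with shMed4 #4 ranged from -0.025 to 0.0072 (without shMed4 #4 replicate 1) and stood at 0.00091 with no low-count filter. None of these 3 genes passed in its comparison. The 2 proteoglycan genes lower with shMed4 #1 became 1 in DESeq2, 0 at an adjusted p under 0.01 and 0 to 2 when single libraries were left out. At that stricter threshold 2573 genes passed for shMed4 #4 minus shMed4 #1, against 4017. With the longest transcript as length, the shares in shMed4 #1, shMed4 #4 and NTC were 19.7, 22.0 and 13.6% for Sdc1, 4.73, 4.67 and 5.77% for Sdc2, 37.4, 38.3 and 35.6% for Sdc3, and 38.2, 35.0 and 45.0% for Sdc4, and in NTC 99.7% for Gpc1 and 0.288% for Gpc6. Same-numbered libraries did not deviate together (r from -0.0586 to 0.0352), and libraries of different number had r from -0.0747 to 0.0648. These values cannot exclude that libraries of the same number were handled together. With the replicate number as a block, 5828, 7807, 7537 and 3859 genes passed for shMed4 #1, shMed4 #4, the mean and shMed4 #4 minus shMed4 #1, against 5966, 7895, 7640 and 4017, and the counts of proteoglycan genes did not move. With upper-quartile factors or the size factors of DESeq2 no proteoglycan gene changed its call. Depth limits Gpc6, Dcn and Gpc4, and reads shared with genes on the other strand limit Gpc1 and Sdc3.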
